A study of Mus musculus with 3 samples.

Results

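The genes described here are the chemokines, small secreted proteins that attract leukocytes, and their receptors. They were measured on 3 two-colour oligonucleotide arrays of mouse RNA. On every array a commercial liver total RNA carried the red dye (Cyanine-5) and a commercial spleen total RNA the green dye (Cyanine-3), both as cRNA after 1 round of amplification. The labels give no genotype, strain, sex, age or number of mice, and no array has the dyes exchanged, so dye bias and tissue cannot be told apart. The 3 arrays are repeats of 1 pair of RNAs, so each SD and p-value reflects array-to-array spread only, and that may be technical.

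Members were chosen by name from the platform annotation, as probes with a single gene symbol beginning Ccl, Cxcl, Xcl, Ccr, Cxcr or Xcr and a digit, or Cx3c. This took 104 of the 16281 probes, which stood for 51 of 10698 named genes. Of them, 34 genes with 68 probes were ligands and 17 genes with 36 probes were receptors. An exact 0 was treated as a missing value. After that, 94 member probes had a value on all 3 arrays, and 50 genes could be tested. Ccl21c had no such probe. All values below are deposited log2 ratios read as liver over spleen, so a negative value is higher in spleen. This direction is a likely reading that no label states, and the array titles name spleen before liver. Liver genes kept for the check had a median of 4.04, 4.62 and 3.80 on arrays 1, 2 and 3, resting on 1, 3 and 1 genes, and 7 spleen genes had -1.69, -1.60 and -1.16.

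Chemokines fall into CC, CXC, XC and CX3C classes by the spacing of their first cysteines, and signal through G protein-coupled receptors on leukocytes. Homeostatic chemokines are made constantly, and in spleen they hold the B-cell follicles and the T-cell zones apart. Inflammatory chemokines are induced in injured or infected tissue and bring in neutrophils, monocytes and effector lymphocytes. Liver draws natural killer T cells and monocytes into its sinusoids along the same routes.

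Counted by gene, with the probes of a gene averaged, 13 of 17 receptors differed between liver and spleen, against 7 of 33 measured ligands (76.5% and 21.2%). Of 17 receptors, 5 passed limma's test toward liver and 8 toward spleen (29.4% and 47.1%). Of the ligands, none passed toward liver and 7 toward spleen, with 5 and 10 at an unadjusted p under 0.05. Over all 9803 genes 52.8% passed at an adjusted p under 0.05, 25.3% toward liver and 27.4% toward spleen, and the ligand share toward spleen is near that background. The ligand count depends on how probes are combined. Counted by probe, 25 of 62 ligand probes passed (40.3%), 10 toward liver and 15 toward spleen. Of 32 receptor probes 19 passed (59.4%), 6 toward liver and 13 toward spleen. Over all 14122 probes the share was 50.2%, with 23.5% toward liver and 26.7% toward spleen. With the probe furthest from 0 standing for each gene, 20 of 33 ligands passed (60.6%), 9 toward liver and 11 toward spleen. By that rule 15 of 17 receptors passed (88.2%), 5 toward liver and 10 toward spleen. The share of all genes was then 56.3%, with 26.9% toward liver and 29.4% toward spleen. The difference between ligands and receptors was not tested. The median log2 ratio was 0.04 for ligands, -0.24 for receptors and 0.02 for all genes. Among ligands 22 of 33 lay within 0.25 of 0 (66.7%), against 4 of 17 receptors (23.5%) and 42.5% of all genes. By probe that contrast was smaller, at 51.6% of ligand probes, 28.1% of receptor probes and 42.3% of all probes.

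**Figure D1:**
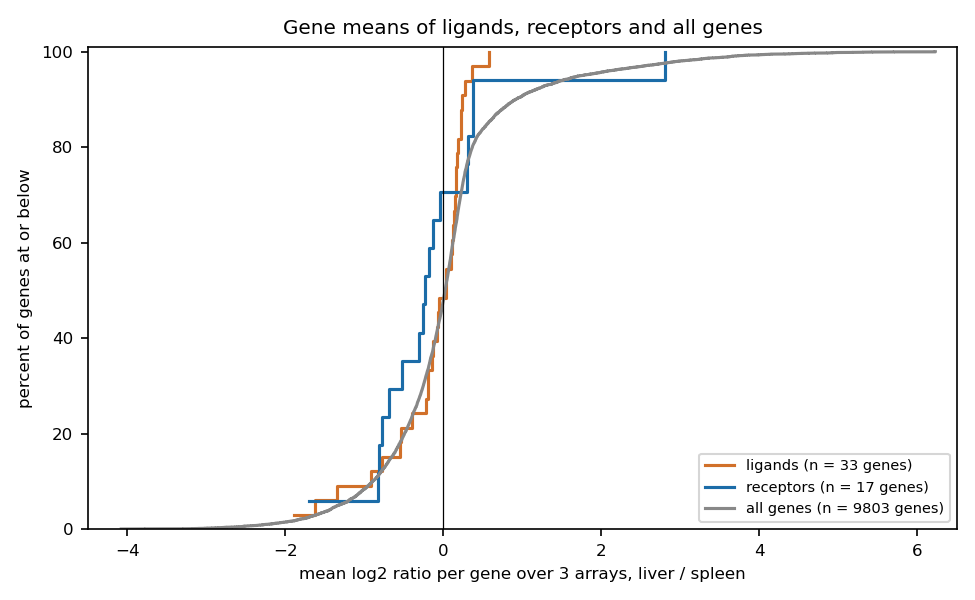
Cumulative percent of genes (vertical axis) against the mean log2 ratio per gene over 3 arrays (horizontal axis, liver over spleen), with 1 line each for 33 ligands, 17 receptors and 9803 genes. The receptor line lies left of 0 for 12 of 17 genes, and the ligand line is steepest near 0, where 22 of 33 genes lie within 0.25.

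At 2-fold or more, no ligand of 33 passed toward liver and 3 passed toward spleen, while 1 receptor of 17 passed each way. Over all genes the shares were 9.21% toward liver and 8.4% toward spleen. The ligand share toward spleen is near that background, and the receptor shares do not exceed it. The ligands were the eotaxin Ccl24, the B-cell chemokine Cxcl13 and the T-zone chemokine Ccl19. The receptors were Ccr3 toward liver and Cxcr5 toward spleen. These gene means average probes that often disagree. Counted by probe, 2 of 62 ligand probes passed toward liver at 2-fold and 7 toward spleen, and of 32 receptor probes 1 and 6 did. Over all 14122 probes the shares were 8.85% and 9.13%.

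Promoter sequences of 5 members on which these results turn are shown as the 250 bases before the RefSeq transcript start (GRCm38.p6), each 5′ to 3′ on the gene's strand. Cxcl13, Ccl19 and Cxcr6 had a probe far toward spleen, Ccr3 a probe far toward liver, and Ccl9 a probe on each side. Capitals mark matches to TATAAA (sense strand), the NF-kB consensus, the interferon regulatory factor core AANNGAAA, the octamer ATTTGCAT and the PU.1 motif GAGGAAGT (both strands for all but the first). The regions are chr5:95956689-95956938 (+) for Cxcl13, chr4:42756366-42756615 (-) for Ccl19, chr9:123806227-123806476 (+) for Cxcr6, chr9:124021721-124021970 (+) for Ccr3 and chr11:83578637-83578886 (-) for Ccl9.
Cxcl13: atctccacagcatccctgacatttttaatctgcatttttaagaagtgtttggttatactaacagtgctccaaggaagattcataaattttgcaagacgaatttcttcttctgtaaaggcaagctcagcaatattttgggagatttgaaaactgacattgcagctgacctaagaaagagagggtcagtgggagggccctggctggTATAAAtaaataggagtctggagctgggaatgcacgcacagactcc
Ccl19: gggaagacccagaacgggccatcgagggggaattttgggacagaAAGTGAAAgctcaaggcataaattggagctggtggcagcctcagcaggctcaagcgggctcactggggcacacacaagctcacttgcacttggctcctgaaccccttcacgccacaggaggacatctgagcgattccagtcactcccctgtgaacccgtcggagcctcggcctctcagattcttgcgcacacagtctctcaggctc
Cxcr6: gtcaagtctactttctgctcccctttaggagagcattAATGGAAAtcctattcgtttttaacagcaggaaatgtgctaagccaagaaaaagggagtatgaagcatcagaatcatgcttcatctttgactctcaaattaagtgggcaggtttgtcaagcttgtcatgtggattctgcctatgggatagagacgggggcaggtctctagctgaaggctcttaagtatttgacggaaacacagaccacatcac
Ccr3: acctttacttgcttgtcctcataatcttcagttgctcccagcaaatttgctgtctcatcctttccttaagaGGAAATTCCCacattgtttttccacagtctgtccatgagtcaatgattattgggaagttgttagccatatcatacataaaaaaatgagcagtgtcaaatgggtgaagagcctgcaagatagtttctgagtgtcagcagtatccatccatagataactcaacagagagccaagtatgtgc
Ccl9: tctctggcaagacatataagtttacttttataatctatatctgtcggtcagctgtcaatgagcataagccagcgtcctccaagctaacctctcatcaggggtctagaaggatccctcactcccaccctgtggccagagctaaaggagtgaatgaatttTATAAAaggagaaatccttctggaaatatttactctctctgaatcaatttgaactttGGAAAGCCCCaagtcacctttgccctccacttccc

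Cxcl13 and Ccl9 each held TATAAA, which 7.59% of the table's 32851 promoter windows of this length hold. Ccr3 and Ccl9 each held a match to the NF-kB consensus (7.25% of windows), and Ccl19 and Cxcr6 each held the interferon regulatory factor core (21.3%). None of the 5 held the octamer (1.60% of windows) or the PU.1 motif (2.44%). A match describes letters in the window and is not a measured binding site.

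**Figure D2:**
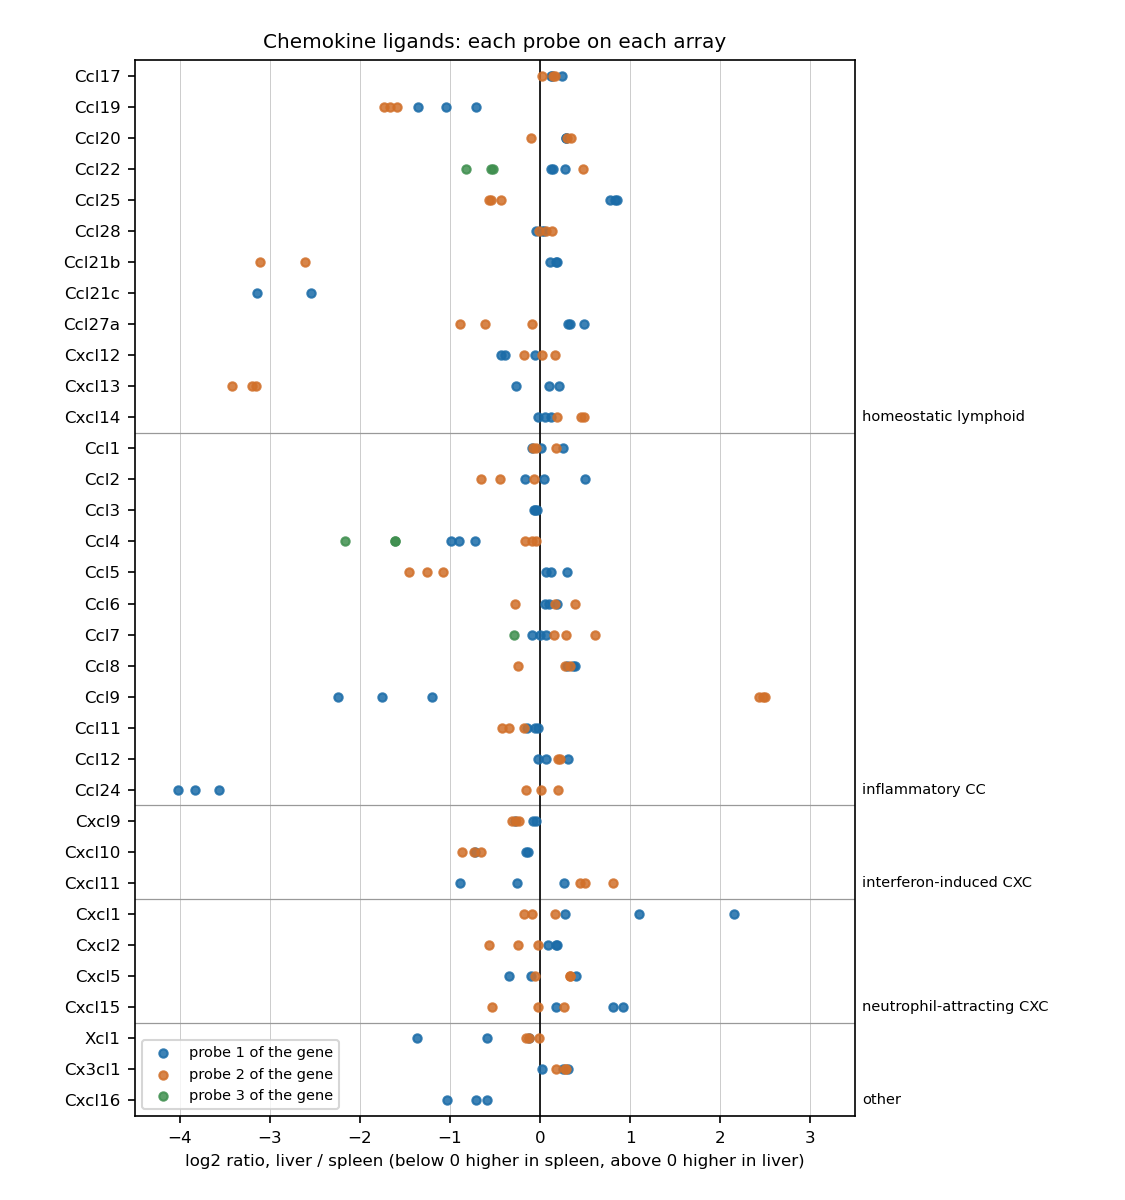
Log2 ratio (horizontal axis, liver over spleen) of every probe of each chemokine ligand on each of the 3 arrays, with exact zeros left out. Colours separate the probes of 1 gene, numbered by probe identifier, and rows are grouped by class. Ccl24, Cxcl13, Ccl21b and Ccl5 have 1 probe well below 0 and another near 0, and Ccl9 has probes on both sides.

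Among homeostatic chemokines of lymphoid tissue, none of 11 measured passed limma's test toward liver and 2 passed toward spleen, with 1 and 3 at an unadjusted p under 0.05, beside 25.3% and 27.4% of all genes past the test. Cxcl13, made by follicular stroma and read by Cxcr5 on B cells, averaged -1.62 ± 0.20 (SD over the 3 arrays, as for all values after ± below), 3.08-fold higher in spleen (adjusted p = 0.000114). Its probe 14212 read -3.43, -3.15 and -3.20 on arrays 1, 2 and 3, the 21st lowest mean of all 14122 probes, while probe 10504 read -0.27, 0.22 and 0.10. Ccl19, which draws T cells and dendritic cells through Ccr7, averaged -1.35 ± 0.15 (adjusted p = 0.000139). Both of its probes lay toward spleen on every array, 12841 at -1.36, -0.72 and -1.04 and 15297 at -1.59, -1.66 and -1.73.

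The near-identical Ccl21 copies encode the other Ccr7 ligand. Probe 5401 of Ccl21b read -3.11 on array 1 and -2.61 on array 3, and the single probe of Ccl21c read -3.15 and -2.55 on the same arrays. Both were listed at 0 on array 2. A probe annotated to both Gm1987 and Ccl21a, outside the name rule, behaved alike with -3.16, 0 and -2.66. These probes may share signal and were not resolved. The tested Ccl21b value came from probe 2940, which read 0.11, 0.18 and 0.19 and did not pass (adjusted p = 0.126). With probes measured on 2 arrays admitted, Ccl21b averaged -1.36 (adjusted p = 0.00119).

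The other 9 homeostatic ligands lay within 0.25 of 0 as gene means, Ccl21b among them only by its complete probe. Ccl25, the thymic and gut ligand of Ccr9, had probe 232 at 0.83, 0.78 and 0.86 and probe 9118 at -0.55, -0.57 and -0.43. Both probes passed the test over all probes in opposite directions, and the gene mean of 0.15 did not. Ccl27a, a skin ligand of Ccr10, likewise had probe 15423 at 0.48, 0.33 and 0.32 and probe 17747 at -0.62, -0.89 and -0.09, each past that test. Ccl22, a ligand of Ccr4, had probe 12207 at -0.83, -0.55 and -0.52, all toward spleen, and probe 1741 at 0.15, 0.28 and 0.12. A further Ccl22 probe had a value on array 2 alone, 0.48.

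Ccl17, the other Ccr4 ligand, read 0.14, 0.25 and 0.12 on probe 1272 and 0.17, 0.14 and 0.02 on probe 8941, small values all above 0. Ccl20, the ligand of Ccr6, read 0.30, 0.35 and -0.10 on its complete probe, and 0.29 on arrays 1 and 3 on another. Ccl28, a mucosal chemokine, lay close to 0 on all arrays, with probe 608 at 0.02, 0.05 and -0.05 and probe 15381 at 0.07, -0.01 and 0.14. Cxcl12, which retains blood stem cells and lymphocytes through Cxcr4, read -0.39, -0.05 and -0.43 on probe 12177 and 0.03, 0.17 and -0.17 on probe 14082. Its 95% interval was -0.38 to 0.10, so a small difference either way was not detectable with 3 arrays. Cxcl14, a chemokine of epithelia, read 0.06, 0.12 and -0.02 on probe 9059 and 0.46, 0.19 and 0.49 on probe 9722, and its mean of 0.22 did not pass (adjusted p = 0.059).

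Of 12 inflammatory CC ligands, none passed limma's test toward liver and 3 passed toward spleen, with 2 and 3 at an unadjusted p under 0.05. The share toward spleen, 25%, is near the 27.4% of all genes. Ccl24, an eotaxin that recruits eosinophils through Ccr3, was furthest from 0 at -1.90 ± 0.03 (adjusted p = 2.53e-05). The mean rests on probe 2817, which read -4.02, -3.57 and -3.83 and was the 7th lowest of all 14122 probes. Probe 5132 of the same gene read 0.20, -0.15 and 0.01, on both sides of 0. Ccl4, a product of macrophages and T cells, averaged -0.92 ± 0.10 (adjusted p = 0.000409). Its 3 probes were all below 0 but differed in size, with 13530 at -2.17, -1.61 and -1.61, 6379 at -0.89, -0.99 and -0.73 and 10714 at -0.05, -0.08 and -0.17. Ccl5, stored by cytotoxic T cells, averaged -0.55 ± 0.14 (adjusted p = 0.00404), from probe 10752 at -1.25, -1.45 and -1.08 and probe 9449 at 0.07, 0.13 and 0.30. Ccl3, a relative of Ccl4, had 1 probe at -0.06, -0.03 and -0.07, close to 0 on every array.

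Ccl9, a mouse ligand of Ccr1 made by myeloid cells, had probes on opposite sides of 0. Probe 15620 read 2.43, 2.50 and 2.47, toward liver on all arrays, and probe 9056 read -2.25, -1.20 and -1.76, toward spleen on all arrays. The gene mean of 0.37 ± 0.28 did not pass (adjusted p = 0.0517) and describes neither probe. Ccl6, its neighbour in the family, stayed near 0, with probe 5921 at 0.10, 0.19 and 0.06 and probe 12521 at -0.27, 0.39 and 0.17.

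None of the other 6 inflammatory CC ligands passed. Ccl2, the main Ccr2 ligand, read 0.50, 0.04 and -0.16 on probe 4412 and -0.44, -0.65 and -0.06 on probe 12522, with signs that differ. Ccl7 read 0.07, 0.0019 and -0.09 on probe 9667 and 0.15, 0.29 and 0.61 on probe 13656. A further Ccl7 probe was at -0.29 on array 2 alone. Ccl12, a mouse Ccr2 ligand, read -0.02, 0.07 and 0.31, and another probe read 0.20 and 0.22 on arrays 1 and 2. Ccl8, which binds Ccr8 in mouse, read 0.37, 0.30 and 0.39 on probe 15433 and -0.25, 0.28 and 0.33 on probe 15938. Ccl1, the other Ccr8 ligand, read 0.01, 0.25 and -0.09 on probe 3229 and 0.18, -0.08 and -0.04 on probe 4454, on both sides of 0. Ccl11, an eotaxin, read -0.14, -0.05 and -0.03 on probe 12731 and -0.34, -0.42 and -0.18 on probe 16983, below 0 throughout, and its mean of -0.19 did not pass (adjusted p = 0.0853).

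Interferon-induced CXC ligands, which bring effector T cells through Cxcr3, held 1 of 3 members past the test, Cxcl10, toward spleen. That share, 33.3%, is near the 27.4% of all genes past the test in that direction. Toward liver none passed, also at an unadjusted p under 0.05, and toward spleen 2 were under that limit. Cxcl10 averaged -0.54 ± 0.13 (adjusted p = 0.0038), from probe 10651 at -0.87, -0.65 and -0.73 and probe 106 at -0.16, -0.72 and -0.13. Cxcl9 read -0.04, -0.08 and -0.27 on probe 4473 and -0.31, -0.27 and -0.24 on probe 12552, all below 0, with a mean of -0.20 (adjusted p = 0.0703). Cxcl11 read 0.45, 0.81 and 0.50 on probe 13772 and 0.27, -0.25 and -0.89 on probe 9970, which crossed 0.

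The neutrophil-attracting CXC ligands did not pass in either direction by limma, beside 25.3% of all genes toward liver and 27.4% toward spleen. Of these 4 ligands 1 had an unadjusted p under 0.05, toward liver. That gene was Cxcl1, with probe 12922 at 1.10, 2.15 and 0.28 and probe 18451 at -0.17, 0.16 and -0.09. Its mean of 0.57 ± 0.54 had the widest spread of the 50 genes, and it passed without array 3, at a mean of 0.81. Cxcl2 read 0.17, 0.09 and 0.19 on probe 3347 and -0.25, -0.02 and -0.57 on probe 6063. Cxcl5 read 0.39, -0.35 and -0.09 on probe 3309 and 0.33, -0.06 and 0.33 on probe 18513, with both signs on each. Cxcl15, known from lung epithelium, read 0.92, 0.81 and 0.18 on probe 3621 and 0.27, -0.53 and -0.03 on probe 10745.

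The remaining ligands are membrane-bound or of the XC class. Cxcl16, a transmembrane ligand of Cxcr6, averaged -0.78 ± 0.23 on 1 probe (adjusted p = 0.00227) and read -1.03, -0.71 and -0.59. Xcl1, released by natural killer and CD8 T cells, read -1.37, -0.59 and -0.12 on probe 3132 and -0.12, -0.01 and -0.15 on probe 9180, below 0 on every array but unequal. Its mean of -0.39 ± 0.31 did not pass (adjusted p = 0.0526), and did with arrays centred, at -0.42 (adjusted p = 0.0453). Cx3cl1, the endothelial chemokine fractalkine, read 0.02, 0.26 and 0.31 on probe 7855 and 0.18, 0.28 and 0.28 on probe 11444, all above 0 and small. Its mean was 0.22 (adjusted p = 0.0685).

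Over the 26 ligands that did not pass, means ran from -0.39 to 0.57, and the ends of their 95% intervals from -0.73 to 1.08. Without array 1, 1 ligand passed toward liver, Ccl9. Without array 3, 3 did (Ccl20, Cxcl1 and Cxcl11), and Xcl1 joined those toward spleen.

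**Figure D3:**
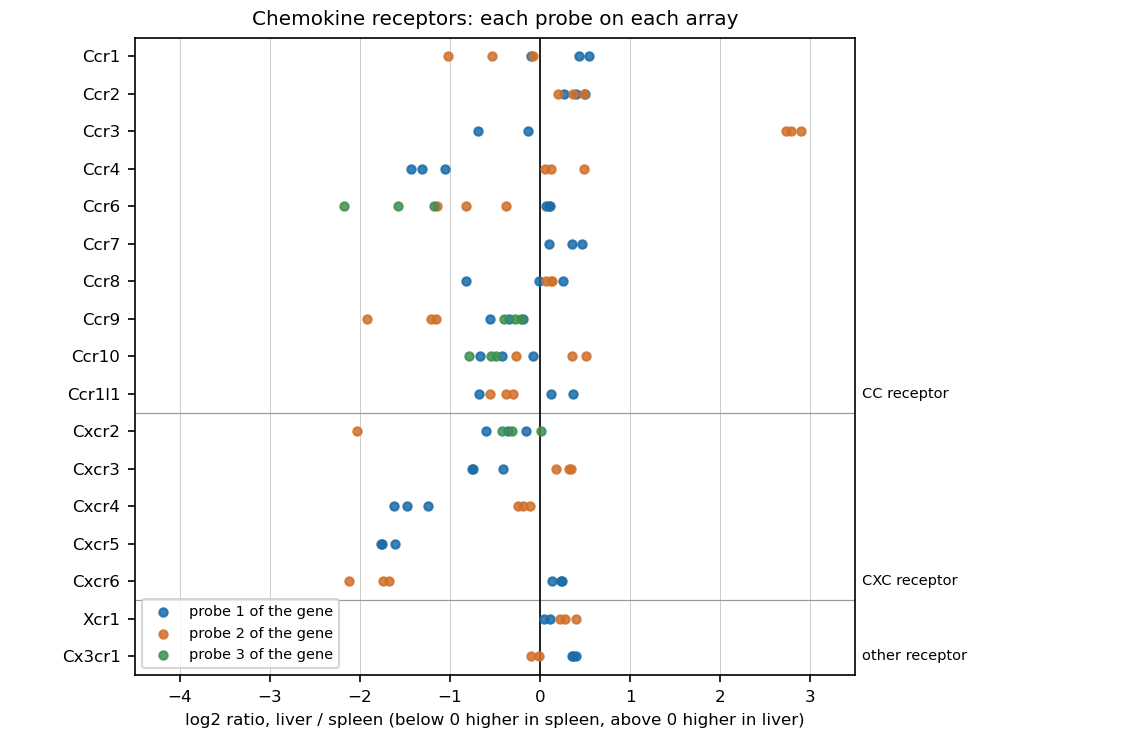
Log2 ratio (horizontal axis, liver over spleen) of every probe of each chemokine receptor on each of the 3 arrays, with exact zeros left out. Colours separate the probes of 1 gene, numbered by probe identifier. A probe of Ccr3 stands near 2.81, and probes of Cxcr4, Cxcr5, Cxcr6, Ccr4, Ccr6 and Ccr9 lie beyond -1 as means.

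Among 10 CC receptors, 3 passed toward liver and 4 toward spleen (30% and 40%), near the 25.3% and 27.4% of all genes. Ccr3, the eosinophil receptor of the eotaxins, was furthest toward liver at 2.81 ± 0.08, 7-fold higher in liver (adjusted p = 1.33e-05). Probe 18479 read 2.90, 2.74 and 2.79 and ranked 314th toward liver among all 14122 probes. The other Ccr3 probe had values on arrays 1 and 3 alone, -0.14 and -0.69, so it goes the other way where it was measured. With that probe admitted the Ccr3 mean was 1.22 (adjusted p = 0.00198), and with zeros kept as ratios 1.27 (adjusted p = 0.00248). Ccr2, the receptor of inflammatory monocytes, averaged 0.37 ± 0.11 (adjusted p = 0.0134) with probes that matched, 1385 at 0.27, 0.40 and 0.49 and 6440 at 0.37, 0.20 and 0.49. It did not pass without array 3, at a mean of 0.31. Ccr7, which guides T cells and mature dendritic cells to Ccl19 and Ccl21, read 0.35, 0.10 and 0.47 on its single probe (adjusted p = 0.0445). In the fit over all probes that probe did not pass. The gene did not pass with arrays centred (0.28, adjusted p = 0.0629), nor without array 1 (0.29) or array 3 (0.23).

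Toward spleen, Ccr6, a receptor of B cells and Th17 cells, averaged -0.78 ± 0.29 (adjusted p = 0.00391). Its probes read -1.58, -2.17 and -1.18 on 11152, -0.83, -1.14 and -0.37 on 10348 and 0.10, 0.11 and 0.06 on 2879, so 2 lay toward spleen on every array and 1 near 0. Ccr9, the receptor of thymocytes and gut-homing T cells, averaged -0.70 ± 0.18 (adjusted p = 0.00221). All 3 Ccr9 probes were below 0 on all arrays, with 9057 at -1.93, -1.16 and -1.21, 7290 at -0.56, -0.35 and -0.18 and 14441 at -0.21, -0.40 and -0.28. Ccr4, found on helper and regulatory T cells, averaged -0.52 ± 0.21 (adjusted p = 0.00884), from probe 7624 at -1.31, -1.06 and -1.43 and probe 12561 at 0.06, 0.49 and 0.12. Ccr10, known from plasma cells and skin T cells, averaged -0.26 ± 0.11 (adjusted p = 0.0436) and did not pass when array 1, 2 or 3 was left out, at means of -0.32, -0.26 and -0.21. Its probes read -0.54, -0.49 and -0.78 on 18478, -0.42, -0.66 and -0.07 on 2134 and 0.52, 0.36 and -0.26 on 11862.

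Ccr1, Ccr8 and Ccr1l1 did not pass. Ccr1, a receptor of myeloid cells, read 0.54, -0.10 and 0.43 on probe 9184 and -1.02, -0.54 and -0.08 on probe 9893, which overlap. Its close relative Ccr1l1 read 0.36, 0.12 and -0.67 on probe 6834 and -0.38, -0.30 and -0.55 on probe 12239. Ccr8, known from regulatory T cells, read 0.06, 0.12 and 0.13 on probe 12176 and -0.83, -0.01 and 0.26 on probe 4912. Their intervals reached from -0.58 to 0.28 over the 4 receptors that did not pass.

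Of 5 CXC receptors, none passed toward liver, also at an unadjusted p under 0.05 by limma, and 4 passed toward spleen, beside 27.4% of all genes. Cxcr5, which places B cells and follicular helper T cells in follicles, averaged -1.71 ± 0.09, 3.27-fold higher in spleen (adjusted p = 4.2e-05). Its single probe read -1.75, -1.76 and -1.61. Cxcr6, carried by natural killer T and effector T cells, averaged -0.83 ± 0.10 (adjusted p = 0.000601). Probe 13516 read -1.75, -2.13 and -1.68 and probe 6061 read 0.23, 0.24 and 0.14, with no overlap. Cxcr4, present on most leukocytes, averaged -0.81 ± 0.08 (adjusted p = 0.00057) from probe 6801 at -1.24, -1.63 and -1.47 and probe 9119 at -0.19, -0.11 and -0.24. Cxcr2, the neutrophil receptor, averaged -0.30 ± 0.18 (adjusted p = 0.044) and did not pass when array 1, 2 or 3 was left out, at means of -0.37, -0.34 and -0.20. Its complete probes read -0.35, -0.15 and -0.60 on 5998 and 0.01, -0.31 and -0.42 on 12722, and a further probe read -2.04 on array 2 only. Cxcr3, the receptor of the interferon-induced ligands, had probes past the test over all probes on opposite sides, 14250 at -0.76, -0.75 and -0.41 and 15425 at 0.33, 0.18 and 0.34, and a mean of -0.18 (adjusted p = 0.134).

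Both remaining receptors passed toward liver at small values, beside 25.3% of all genes. Cx3cr1, of monocytes and tissue macrophages, averaged 0.38 ± 0.03 (adjusted p = 0.00846) on probe 5999, which read 0.40, 0.36 and 0.36. Another Cx3cr1 probe read -0.01 and -0.10 on arrays 2 and 3. Xcr1, of cross-presenting dendritic cells, averaged 0.30 ± 0.09 (adjusted p = 0.025) on probe 13865 at 0.40, 0.28 and 0.22, and another probe read 0.05 and 0.11 on arrays 2 and 3. With probes measured on 2 arrays admitted, neither passed, at 0.15 and 0.16. Xcr1 also did not pass without array 1 (0.25) or array 2 (0.31).

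Set beside its textbook receptor, a ligand passed in the same direction in 2 of 30 pairs, both toward spleen. In one, Cxcl13 averaged -1.62 and Cxcr5 -1.71. In the other, Cxcl16 averaged -0.78 and Cxcr6 -0.83. The Cxcl13 mean averages probes at -3.26 and 0.02, and the Cxcr6 mean probes at -1.85 and 0.20. The closeness of the partners' means therefore depends on averaging probes that differ. In 2 pairs the partners passed in opposite directions. Ccl24 lay toward spleen at -1.90 while Ccr3 lay toward liver at 2.81, and Ccl19 toward spleen at -1.35 while Ccr7 lay toward liver at 0.31. The Ccl24 mean averages probes at -3.81 and 0.02, and the tested Ccr3 value is 1 probe. The other Ccr3 probe read -0.14 and -0.69 on arrays 1 and 3. The Ccr7 call, and so that pair, was lost with arrays centred, with zeros kept (adjusted p = 0.0703), and without array 1 or array 3. For Cxcr4, Ccr6, Ccr9, Ccr4, Ccr10 and Cxcr2 the receptor passed toward spleen and none of the paired ligands passed as a gene mean. In the fit over all probes, Ccl22, Ccl25 and Ccl27a each had a probe past the test toward spleen. Ccl25, Ccl27a and Cxcl1 each had a probe past it toward liver. Pairs that share a receptor or ligand are not independent, and no test was made over them.

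Probes of the same gene were compared within each array, because a gene mean hides how they differ. Of 48 probe pairs in 40 member genes, 13 differed by 1 or more on the log2 scale at an adjusted p under 0.05 (27.1%), against 16.4% of 2902 same-gene pairs over the table. The 13 pairs lie in 12 genes, with 7 of 30 ligand pairs (23.3%) and 6 of 18 receptor pairs (33.3%). Pairs of a gene with 3 probes share a probe. The median absolute difference was 0.68 for member pairs and 0.32 for all pairs. In 11 of the 13 the probe nearer 0 was within 0.5 of it (84.6%), and over the table the share was 80.7%.

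Ccl9 had the largest difference among the 48 member pairs measured on all arrays, 4.20 ± 0.49 in size (SD, n = 3). Probe 9056 minus probe 15620 had a 95% interval of -4.72 to -3.68 and limma's adjusted p was 0.000336. By size it ranked 5 of all 2902 pairs, and 2 of the 148 pairs whose probes passed in opposite directions. Ccl24 followed at 3.83 ± 0.40 and Cxcl13 at 3.28 ± 0.11. Among receptor pairs measured on all 3 arrays Cxcr6 differed most, by 2.05 ± 0.28, then Ccr6 by 1.74 ± 0.52 between its outer probes. Ccl4, Ccr4, Ccl5, Ccl25, Cxcr4, Cxcl1 and Ccr9 made up the rest, at 1.07 to 1.70. The Ccr3 probes, compared on arrays 1 and 3 alone and so not tested, lay further apart than those of Cxcr6. Ccl9, Ccl25, Ccl27a and Cxcr3 had probes past the test on opposite sides, 4 of 48 pairs (8.33%) against 5.10% over the table. Of 12 differing pairs with a RefSeq probe and a GenBank probe, the RefSeq probe lay further from 0 in 6, and in 95 of 230 such pairs over the table.

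**Figure D4:**
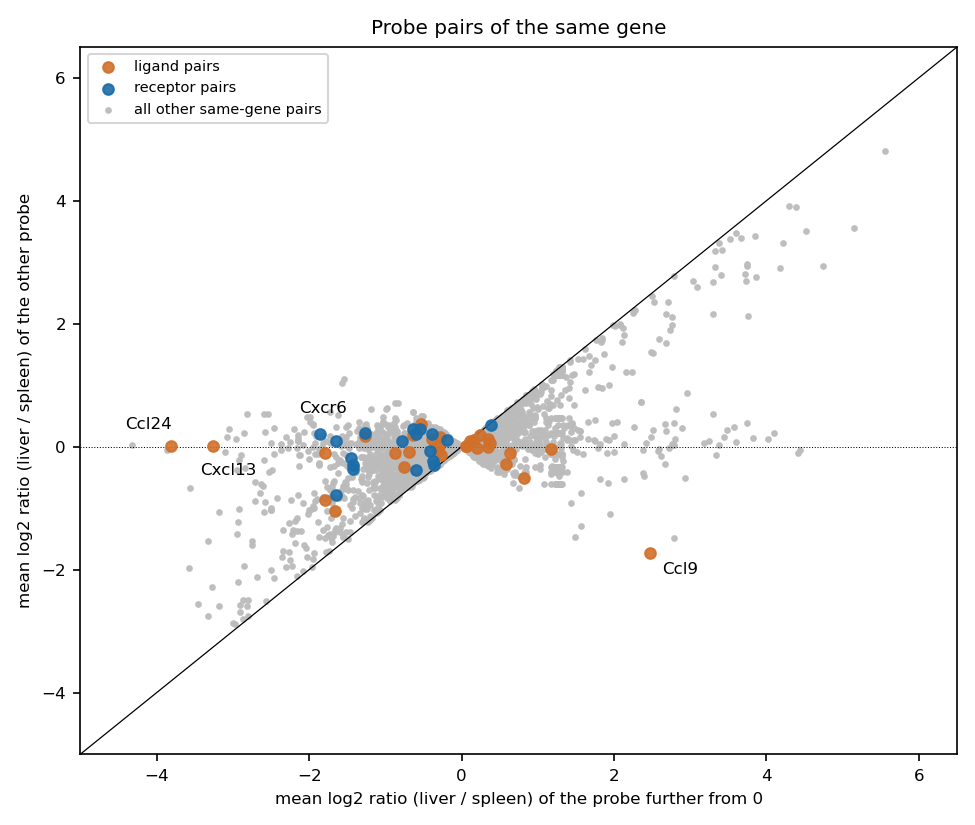
Mean log2 ratio (liver over spleen) of the probe further from 0 (horizontal axis) against that of the other probe of the same gene (vertical axis), for 30 ligand pairs, 18 receptor pairs and all other same-gene pairs. Points on the diagonal have equal probes, and points on the dotted line have 1 probe at 0. Ccl24, Cxcl13 and Cxcr6 lie near the dotted line and Ccl9 lies on opposite sides of 0.

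Of 36 measured genes of chemotaxis signalling, none passed toward liver and 27 toward spleen (75.0%), with 1 and 29 at an unadjusted p under 0.05 by limma. Over all genes 27.4% passed toward spleen. The median log2 ratio of the list was -0.60, beside 0.02 for all genes. Rgs18 and Rgs1, which shorten G protein signals, averaged -2.15 ± 0.15 and -1.99 ± 0.10, and the cytokine receptor kinase Jak2 -1.96 ± 0.05. Among genes of cell movement, the haematopoietic GTPase Rac2 averaged -1.78 ± 0.19 and its activator Dock2 -1.15 ± 0.29. Gnai2, the inhibitory G protein subunit that chemokine receptors use, averaged -0.71 ± 0.33. The adaptors Crk and Bcar1, among the 9 genes that did not pass, averaged 0.14 ± 0.29 and 0.45 ± 0.38. How broadly these genes are expressed was not measured. Rac1, Cdc42 and Rhoa also passed toward spleen. They averaged -0.63 ± 0.09, -0.33 ± 0.04 and -0.31 ± 0.03.

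**Figure D5:**
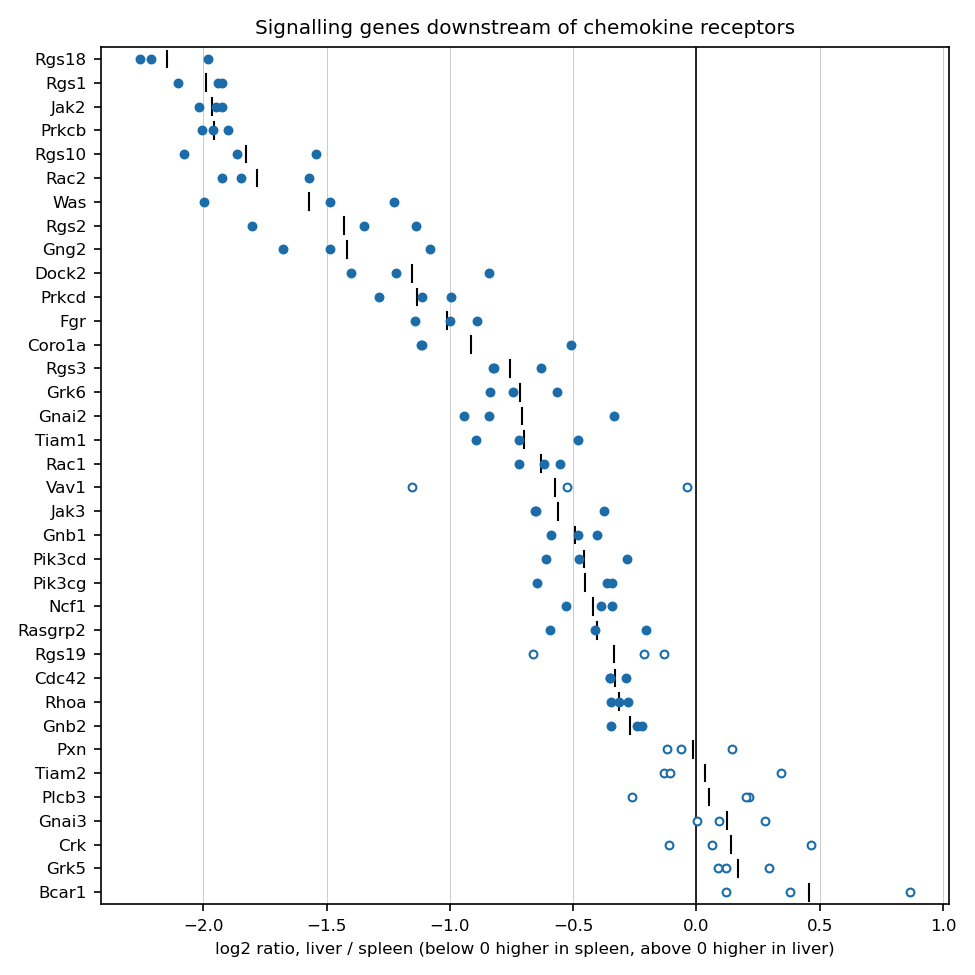
Log2 ratio on each of the 3 arrays (horizontal axis, liver over spleen) for 36 genes downstream of chemokine receptors, sorted by mean. Black ticks mark the means, filled points mark genes past limma's test and open points those that were not. The 27 genes past the test lie below 0.

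Markers of cells that can make or carry these molecules also differed, and their part in the results above was not tested. Toward spleen passed 4 of 4 B-cell markers, 3 of 4 T-cell markers, 4 of 5 macrophage markers and 3 of 5 neutrophil markers, and none of these passed toward liver. Over all genes 27.4% passed toward spleen and 25.3% toward liver. Both Kupffer cell markers and all 4 hepatocyte markers passed toward liver. Of the markers, Cd79a, Cd79b, Cd3e and Ahsg were also among the genes used to read the direction of the ratio. Their sides are therefore no separate evidence for that direction. Of 4 dendritic cell markers 1 passed toward liver, Ccr7 itself, and 2 toward spleen, and of 3 stellate cell markers 1 passed each way. The T-cell marker Cd3e at 0.13 ± 0.09, the macrophage marker Cd14 at 0.10 ± 0.29 and the only measured sinusoidal endothelial marker, Clec4g, at -0.02 ± 0.08 did not pass. In RNA from whole organs, fewer cells of a type and less RNA per cell cannot be told apart.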

How the data were processed

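Liver and spleen RNA were compared on 3 two-colour arrays. The authors' deposited table holds 1 log2 ratio per probe and array. Its log base was taken from the values, since the highest value over the 3 arrays, 6.64, is the log2 of 100. The sources used here do not give the background correction, the dye normalization or the direction of the ratio. Ratios carry no level of either RNA. Number of arrays, not depth, limits precision.

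Exact zeros (1414, 1098 and 1137 probes on arrays 1, 2 and 3) were taken as no measurement. Probes were named from the platform annotation. All 104 member probes were found by Entrez number in a RefSeq gene table (GRCm38.p6) and no symbol changed. Only promoter positions from RefSeq are given, as the build behind the probes is unknown. Probes of a gene measured on all arrays were averaged per array, over 9803 genes. An intercept-only fit in limma 3.58.1 (R 4.3.3) with moderated variances gave two-sided p-values, adjusted by Benjamini-Hochberg over all genes. The same fit was run on 14122 probes and on 2902 within-array differences between probes of a gene. Intervals are limma's 95% intervals. The fits were tested on simulated data.

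Every member could be named, with values on each array. From the signalling genes and the related genes, the 3 largest past the test in each direction could be named. Dock2, Rac2, Gnai2, Crk, Bcar1, Rac1, Cdc42, Rhoa and the markers named were chosen after their values were seen. Members, lists and tests were chosen with earlier results of these data known. Alternatives covered the zeros, array centring and scaling, the choice of probe, arrays measured, a 2-fold limit, a robust variance prior and each array left out.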

Additional observations from a re-analysis of the deposited data

How the results depend on the processing

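The robust variance prior changed no member's call. Array centring, with or without scaling, changed only those of Xcl1 and Ccr7 among the 50 genes. With exact zeros kept as ratios, ligands past the test toward liver numbered 1, receptors 2 toward liver and 6 toward spleen (Ccr7, Cx3cr1, Xcr1, Ccr10 and Cxcr2 no longer passed), Ccr3 averaged 1.27, and the ligand median was -0.059. With the probe furthest from 0 standing for each gene, 9 ligands passed toward liver and 11 toward spleen, the receptor median was -0.55, and 15 members that did not pass before now passed, as the construction favours large values. With probes measured on at least 2 arrays, 9 ligands passed toward spleen and 3 receptors toward liver. Ccr3 then averaged 1.22, the ligand median was -0.059, and Ccl21b turned to -1.36 because a further probe entered. In that setting a gene counted only on arrays where all its kept probes were measured. At 2-fold, 903 of all genes passed toward liver and 823 toward spleen, no ligand toward liver and 3 toward spleen, 1 receptor each way, and 12 signalling genes toward spleen. Without any 1 of the arrays, ligands past the test numbered 0 to 3 toward liver and 7 to 8 toward spleen, and receptors 3 to 4 and 6. Signalling genes numbered 0 to 1 toward liver and 22 to 25 toward spleen, and all genes 1821 to 2157 and 2104 to 2517. The ligand median was -0.042 to 0.023 and the receptor median -0.32 to -0.21. Member probe pairs that differ numbered 11 to 15, and all pairs 455 to 480. No paired analysis was possible because every sample belongs to 1 group. With 3 arrays precision is limited: unadjusted 95% intervals lay wholly above 0 in 10 and wholly below 0 in 18 of the 50 genes, against 5 and 15 past the adjusted test.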

Other observations

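Chemokine-related genes outside the name rule were also measured. Of 14, 2 passed toward liver and 7 toward spleen (beside 25.3% and 27.4% of all genes). The platelet chemokines Pf4 and Ppbp averaged -1.39 ± 0.20 and -1.11 ± 0.37, and Ackr3, the atypical receptor that takes up Cxcl12, averaged -1.33 ± 0.26. Toward liver passed S1pr1, the receptor by which lymphocytes leave lymphoid organs, at 0.47 ± 0.10, and S1pr2 at 0.27 ± 0.04. Cxcl12, the ligand that Ackr3 and Cxcr4 share, did not pass (-0.14), and its receptors Ackr3 and Cxcr4 both passed toward spleen.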
